A study of Mus musculus with 6 samples.

Results

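The miR-23/27/24 arms are the mature miRNAs cut from 2 paralogous miRNA clusters, here called cluster a (Mir23a, Mir27a and Mir24-2) and cluster b (Mir23b, Mir27b and Mir24-1). They were followed in small extracellular vesicles (sEV) released by mouse cochlear explants. The members were taken by name from the table of mature miRNAs, where 8 of the 9 listed arms were found among 810 rows. The arm mmu-miR-24-1-5p is not analysed here. The data are small RNA sequences of 3 libraries of vesicles from explants exposed to 50 µM cisplatin for 48 h (Cis-sEV) and 3 libraries of vesicles from explants that received the same volume of PBS for 48 h (Ctrl-sEV). Cisplatin is a platinum drug that cross-links DNA and damages the sensory hair cells of the inner ear. The explants were cochlear sensory epithelia of ICR mice at postnatal day 3, freed of the spiral ganglion and kept in medium with serum depleted of vesicles, and each library pooled the vesicles of about 80 explants. Levels here are relative to the miRNA reads of a library, so they measure neither vesicle number nor total miRNA per vesicle. A change in the mix of vesicles and a change in their content cannot be told apart in such pooled material.

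A miRNA cluster is transcribed as 1 precursor RNA, which is cut into hairpins, and each hairpin yields a 5p and a 3p arm. One arm is usually kept as the guide that directs silencing, and the other, the passenger, is mostly degraded. For these clusters the 3p arms are the guides. Target choice rests mainly on the seed, bases 2 to 8 from the 5′ end, so that paralogs with the same seed are treated as 1 family. The clusters are known from blood vessels, muscle, fat and immune cells. miR-27 represses regulators of fat cell formation such as Pparg, miR-24 represses cell cycle and death regulators such as the proapoptotic Bcl2l11, and miR-23 represses genes of glutamine metabolism and apoptosis.

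The mature sequences that define the families are given here with the seed in capitals, since they set which arms can share targets and which can be told apart in reads. They are from RefSeq on GRCm38.p6, in which 8 of the 9 listed arms were matched by name. mmu-miR-23b-3p completes the guide arms.
mmu-miR-23a-3p: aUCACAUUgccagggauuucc
mmu-miR-27a-3p: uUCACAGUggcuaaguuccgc
mmu-miR-27b-3p: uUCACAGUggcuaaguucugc
mmu-miR-24-3p: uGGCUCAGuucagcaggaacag
mmu-miR-24-2-5p: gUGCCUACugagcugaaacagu
mmu-miR-27a-5p: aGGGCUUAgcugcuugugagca
mmu-miR-27b-5p: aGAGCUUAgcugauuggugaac
The seeds of miR-23 and miR-27 differ at 1 base, U7G from miR-23a-3p to miR-27a-3p, counted from the 5′ end. The seed of miR-23 was carried by 2 miRBase-named rows of the table, that of miR-27 by 2 and that of miR-24 by 1, all of them members. The paralogs miR-27a-3p and miR-27b-3p differ at 1 of 21 bases (C19U, from miR-27a-3p), and the deposited sequences of miR-23a-3p and miR-23b-3p also differ at 1 of 21 bases. How reads too short or too error-prone to carry that base were divided is not given in the sources used here, so the split between paralogs is less certain than their sum. The passenger arms miR-27a-5p and miR-27b-5p differ at 8 of 22 bases.

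On GRCm38.p6 the hairpins of cluster a lie on the plus strand of chromosome 8, with Mir23a from 84208518 to 84208592, Mir27a from 84208672 to 84208758 and Mir24-2 from 84208815 to 84208921. Mir23a and Mir27a overlapped no other gene of GENCODE M21, whereas Mir24-2 overlapped an exon of the lincRNA Gm26532 on the same strand and Mir3074-2 on the opposite strand. The hairpins of cluster b lie on the plus strand of chromosome 13, with Mir23b from 63300484 to 63300557, Mir27b from 63300712 to 63300784 and Mir24-1 from 63301208 to 63301275. All of them are within the gene 2010111I01Rik on the same strand and within Fancc on the opposite strand. Mir23b is in an intron of 2010111I01Rik, while Mir27b and Mir24-1 overlap its exons, in parts annotated as UTR. miR-24-3p is produced identically by Mir24-2 and Mir24-1, so its reads cannot be assigned to either cluster.

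The Cis-sEV libraries held 1722359 to 1794175 miRNA reads and the Ctrl-sEV libraries 528952 to 718597. Levels are given as CPM scaled by edgeR's TMM factors, a scaling that allows for a few very abundant miRNAs taking up reads. The spread between replicates was unequal, with a biological coefficient of variation of 0.37 in Cis-sEV and 1.55 in Ctrl-sEV over the 353 miRNAs that passed a filter on low counts and were tested. All 8 arms passed that filter. Vesicles of other cell types were checked by marker miRNAs. The hair cell miRNAs of the miR-183 cluster were all read, and their summed level overlapped between the groups (50048 to 73377 CPM in Cis-sEV, 55946 to 73189 CPM in Ctrl-sEV). Of the 3, miR-96-5p was called higher (log2 fold change 2.08, adjusted p = 0.0142 from edgeR), while miR-182-5p (0.18) and miR-183-5p (-0.49) were not called. The summed level of the endothelial miR-126a-3p and miR-126a-5p was lower in Cis-sEV (6224 to 8427 CPM) than in Ctrl-sEV (15934 to 20908 CPM), and miR-126a-3p was called lower (log2 fold change -1.28). miR-126a-5p went the other way (4.17) and was not called (adjusted p = 0.0759 from edgeR). Of 4 erythrocyte miRNAs, 2 were called lower (sums of 977 to 1190 against 1647 to 3736 CPM), with miR-144-5p not in the table. Both muscle miRNAs in the table, of 3 listed, were called higher (sums of 42.7 to 52.9 against 0 to 2.79 CPM). None of the 6 mesenchymal miRNAs was called by edgeR, nor were the 2 leukocyte miRNAs that could be tested of 5 listed, and the sums of both lists overlapped. The part of these cell types in the results that follow was not tested.

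As a share of all miRNA reads, the 8 arms together took 6.27, 6.29 and 5.25% in Cis-sEV, against 2.999, 3.06 and 3.16% in Ctrl-sEV. With TMM scaling the sums were 56467, 57288 and 44452 CPM in Cis-sEV and 39397, 30739 and 34553 CPM in Ctrl-sEV, and the groups did not overlap on either scale. Each arm was then compared between the groups with edgeR's quasi-likelihood test, adjusted over all 353 miRNAs and a call needed an adjusted p no higher than 0.05 together with a log2 fold change of 1 or more in either direction. Of the 8 arms, 1 was called, miR-27b-3p, higher in Cis-sEV. The same limits called 30.0% of all miRNAs tested, 23.5% higher and 6.52% lower. With total miRNA reads in place of TMM, the calls over all miRNAs moved from 83 higher and 23 lower to 97 higher and 11 lower. Without the limit on the fold change, 3 arms passed the adjusted p, miR-23a-3p, miR-23b-3p and miR-27b-3p, against 34.8% of all miRNAs tested. On the TMM scale the groups did not overlap for 4 arms, 3 of them higher in Cis-sEV and 1 lower, beside 37.7% and 12.5% of all miRNAs tested. In CPM of total miRNA reads 5 arms lay higher without overlap and 0 lower, beside 45.3% and 8.78%. The median log2 fold change of the 8 arms was 0.71, beside 0.44 for all miRNAs tested with TMM. That median over all miRNAs was 0.80 with total miRNA reads, so that changes are best read relative to it. It was 1.42 by limma-voom and 1.55 with the replicate number as a block, over the same 353 miRNAs, and 1.45 by DESeq2 over all 810 rows. With each library left out it ran from 0.18 to 1.04.

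**Figure D1:**
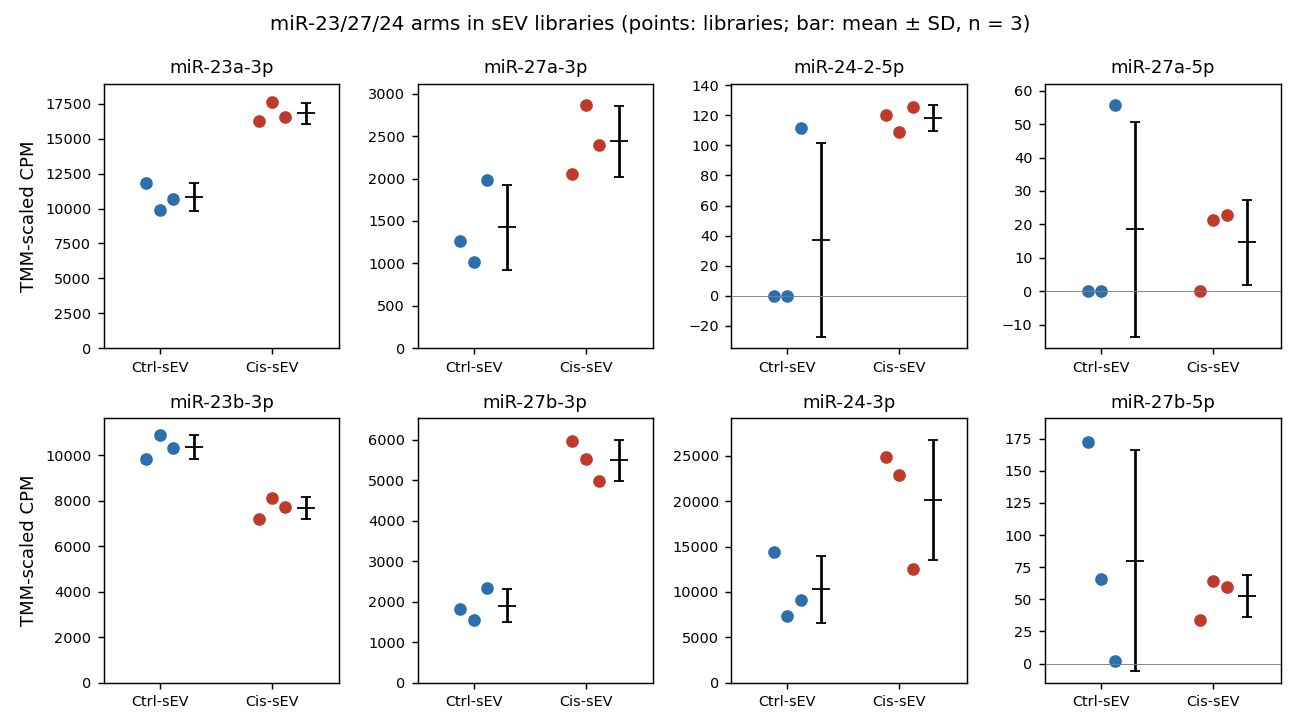
TMM-scaled CPM of each arm (vertical axes, each with its own range) in the 3 Ctrl-sEV and 3 Cis-sEV libraries, with 1 point per library and the mean ± SD beside them, bars that can reach below 0 where reads were few. For miR-23a-3p, miR-27a-3p and miR-27b-3p all Cis-sEV points lie above all Ctrl-sEV points, for miR-23b-3p they lie below, and for the other 4 arms the groups overlap.

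Of the miR-27 guides, only miR-27b-3p was called with TMM. miR-27b-3p, from cluster b, had 5974, 5513 and 4975 CPM in the Cis-sEV libraries and 1816, 1540 and 2338 CPM in the Ctrl-sEV libraries. Every Cis-sEV library exceeded every Ctrl-sEV library by a wide gap. Its level was 2.89-fold higher in Cis-sEV, or 1.53 on the log2 scale with a standard error of 0.20 (adjusted p = 0.00502 from edgeR). The call was kept with each library left out in turn (log2 fold change 1.33 to 1.82, adjusted p = 0.00516 to 0.0264) and by DESeq2 (adjusted p = 0.0476) and limma-voom (adjusted p = 0.0144). Its log2 fold change of 1.46 by DESeq2, 1.57 by limma-voom and 1.55 with the replicate number as a block was close to the median of all miRNAs in those fits. With TMM and with total miRNA reads (1.88) it lay above the median. Without the filter on low counts it was 1.46, below the median of 2.68 over 810 rows. For scale, the calls by DESeq2 were 18.9% higher and 5.07% lower, out of the 454 miRNAs it gave an adjusted p. In either direction, the calls over all miRNAs tested were 12.2% by limma-voom and 6.80% with the replicate number as a block. They were 29.2% with DESeq2 size factors, 30.6% with total miRNA reads and 9.38% without the filter on low counts. Leaving out Cis-sEV replicates 1, 2 and 3 in turn gave 15.5, 16.7 and 20.3%, and leaving out Ctrl-sEV replicates 1, 2 and 3 gave 30.5, 27.4 and 38.3%.

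Its paralog miR-27a-3p, with the same seed but from cluster a, had 2048, 2874 and 2391 CPM in Cis-sEV and 1263, 1019 and 1988 CPM in Ctrl-sEV. The lowest Cis-sEV library lay just above the highest Ctrl-sEV library, replicate 3. The log2 fold change was 0.78 (standard error 0.29), and the arm was not called (adjusted p = 0.0841 from edgeR). Without Ctrl-sEV replicate 3 it was called, at 1.21 (adjusted p = 0.0185), and with total miRNA reads as the scale it was also called, at 1.12 (adjusted p = 0.0290).

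As a family, miR-27a-3p and miR-27b-3p together held 8022, 8387 and 7366 CPM in Cis-sEV and 3079, 2559 and 4326 CPM in Ctrl-sEV, a ratio of means of 2.39. The family took 0.869 to 0.920% of the miRNA reads in Cis-sEV, against 0.234 to 0.396% in Ctrl-sEV.

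The miR-23 guides moved apart. miR-23a-3p, from cluster a, had 16245, 17660 and 16543 CPM in Cis-sEV and 11869, 9883 and 10654 CPM in Ctrl-sEV. All Cis-sEV libraries were above all Ctrl-sEV libraries. The difference of 0.64 on the log2 scale, with a standard error of 0.13, passed the adjusted p (0.0102 from edgeR) but stayed short of the fold limit. The adjusted p was 0.111 when Cis-sEV replicate 1 was left out, 0.0532 when replicate 2 of that group was left out, and 0.437 by DESeq2.

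miR-23b-3p, from cluster b, had 7192, 8135 and 7751 CPM in Cis-sEV and 9852, 10893 and 10334 CPM in Ctrl-sEV. Here all Cis-sEV libraries were below all Ctrl-sEV libraries on the TMM scale, whereas in CPM of total miRNA reads the groups overlapped. The difference was -0.43 on the log2 scale with a standard error of 0.12 (adjusted p = 0.0349 from edgeR), again short of the fold limit. With total miRNA reads it was -0.09 (adjusted p = 0.763), so the lower level of miR-23b-3p depended on the scaling. With 1 library left out the adjusted p from edgeR ran from 0.0302 to 0.341. It was 0.0197 with DESeq2 size factors, 0.0699 without the filter on low counts and 0.178 with the replicate number as a block. By limma-voom the adjusted p was 0.0708 and by DESeq2 0.504.

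The sum of both miR-23 guides was 23438, 25795 and 24294 CPM in Cis-sEV and 21721, 20776 and 20989 CPM in Ctrl-sEV, a ratio of means of 1.16. On this scale the family sum differed less between the groups than miR-23a-3p (1.56-fold higher) or miR-23b-3p (1.35-fold lower) did. With total miRNA reads the log2 ratio of the family was 0.56, more than the -0.09 of miR-23b-3p.

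miR-24-3p, the guide shared by both clusters, had the largest SD of the 5 guides in both groups. It had 24853, 22912 and 12584 CPM in Cis-sEV and 14425, 7338 and 9069 CPM in Ctrl-sEV. Cis-sEV replicate 3 lay well below the other libraries of its group and below Ctrl-sEV replicate 1, so the groups overlapped. In CPM of total miRNA reads they did not. The log2 fold change was 0.97 (standard error 0.34), and the arm was not called (adjusted p = 0.0661 from edgeR). It was called without Cis-sEV replicate 3 (1.35, adjusted p = 0.0189), without Ctrl-sEV replicate 1 (1.22, adjusted p = 0.0453) and with total miRNA reads (1.35, adjusted p = 0.00913).

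**Figure D2:**
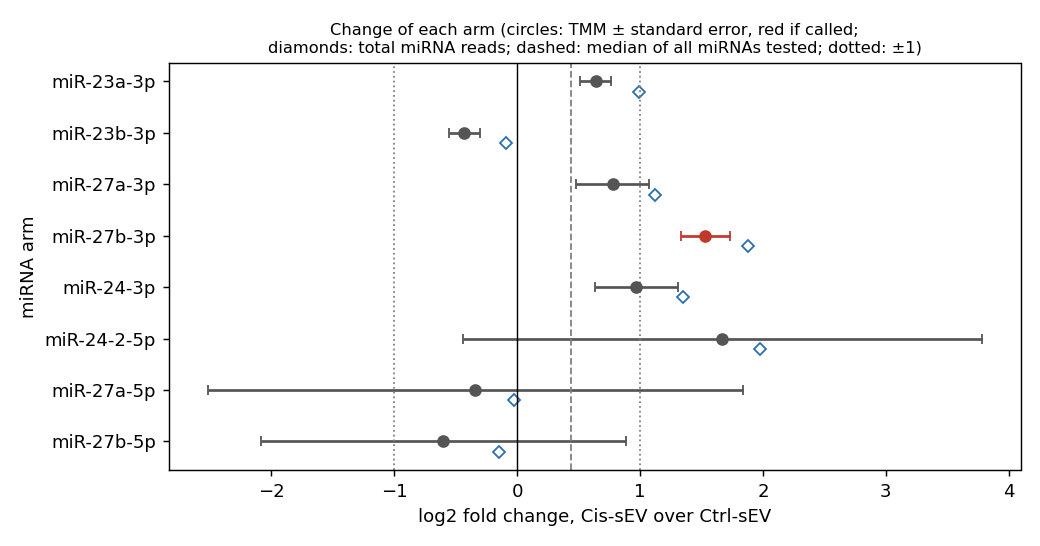
Log2 fold change of each arm between Cis-sEV and Ctrl-sEV (horizontal axis), with circles for TMM scaling and its standard error, open diamonds for scaling by total miRNA reads, a dashed line at the median of all miRNAs tested and dotted lines at the fold limit. Only miR-27b-3p, in red, was called with TMM, and the bars of the 5p arms span several log2 units.

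The passenger arms were read at a small fraction of the guides, and 3 were measured. miR-24-2-5p, from Mir24-2 of cluster a, had 239, 206 and 266 reads in Cis-sEV and 0, 0 and 54 reads in Ctrl-sEV. Its level of 109 to 126 CPM in Cis-sEV was steady, and Ctrl-sEV replicate 3 reached 111 CPM. It was not called (log2 fold change 1.67, standard error 2.11, adjusted p = 0.669 from edgeR). Without Ctrl-sEV replicate 3 the control libraries hold 0 reads. The arm was then at least 46.9-fold higher in Cis-sEV. The floor was 3 reads summed over the remaining controls, the limit that a count of 0 allows. In that fit the arm passed the filter only through its Cis-sEV reads, and 38.3% of all miRNAs tested were called. Its call there (adjusted p = 0.0114 from edgeR) follows from leaving out the only control with reads, so it is no support for a difference.

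miR-27a-5p had 0, 40 and 48 reads in Cis-sEV and 0, 0 and 27 reads in Ctrl-sEV. A library of each group thus lacked it, and it was not called (log2 fold change -0.34, standard error 2.18, adjusted p = 0.936). miR-27b-5p had 68, 122 and 126 reads in Cis-sEV and 71, 47 and 1 reads in Ctrl-sEV. The Ctrl-sEV libraries ranged from 2.06 to 173 CPM, around the 34.2 to 64.5 CPM of Cis-sEV, and it was not called either (log2 fold change -0.60, standard error 1.48, adjusted p = 0.841). For both passengers the standard error exceeded the difference.

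The levels were ordered within each group by reads, the arms being of nearly equal length (21 to 22 bases). Differences between arms in how well they were ligated and amplified were not measured, so this is an order of read levels. In Cis-sEV, miR-24-3p (20116 ± 6595 CPM, SD, n = 3, rank 15 of all miRNAs) and miR-23a-3p (16816 ± 746 CPM, rank 17) overlapped. They were followed by miR-23b-3p (7693 ± 474 CPM, rank 31), miR-27b-3p (5487 ± 500.1 CPM, rank 35) and miR-27a-3p (2438 ± 415 CPM, rank 52), each separated from the next. In Ctrl-sEV, miR-23a-3p (10802 ± 1001 CPM, rank 22), miR-23b-3p (10360 ± 521 CPM, rank 24) and miR-24-3p (10277 ± 3695 CPM, rank 26) overlapped one another in this order. miR-27b-3p (1898 ± 406 CPM, rank 52) and miR-27a-3p (1423 ± 504 CPM, rank 61) overlapped as well, well below the others. The 5p arms were last in both groups, with ranks of 165 to 327 in Cis-sEV, against 186 to 308 in Ctrl-sEV.

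**Figure D3:**
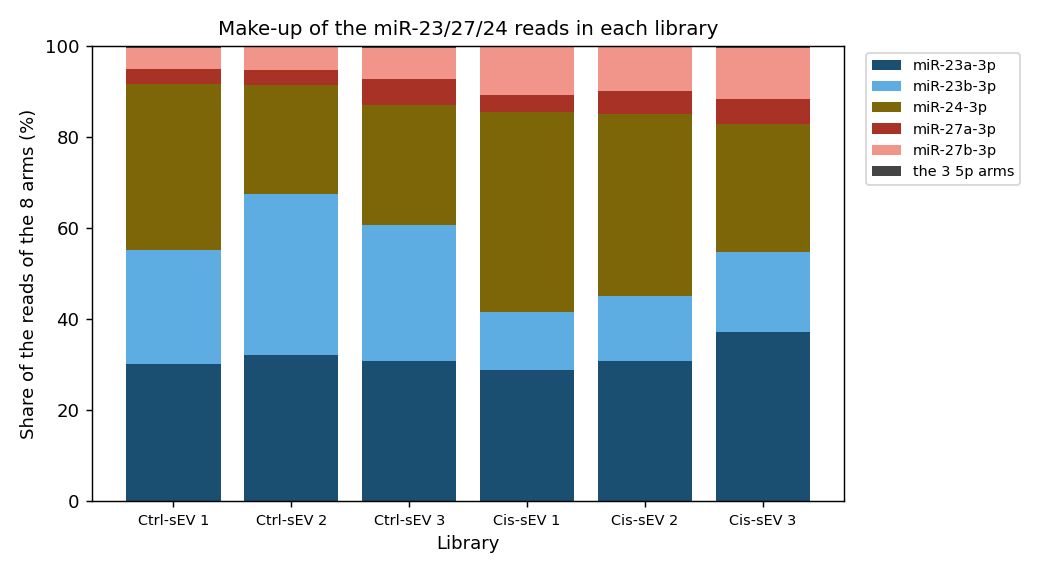
Share of the reads of the 8 arms taken by each guide arm and by the sum of the 3 5p arms (vertical axis, percent) in each library. miR-23b-3p takes 25.01 to 35.4% in Ctrl-sEV and 12.7 to 17.4% in Cis-sEV, and miR-27b-3p 4.61 to 6.77% and 9.62 to 11.2%.

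The paralogs of a family were compared within each library, because a ratio of 2 arms of the same library does not depend on how libraries are scaled. miR-23a-3p made up 69.3, 68.5 and 68.1% of the miR-23 guide reads in Cis-sEV and 54.6, 47.6 and 50.8% in Ctrl-sEV. The 95% Wilson intervals of these shares, which cover counting error only, ran from 67.7 to 69.7% and from 46.8 to 55.7%. The group gap was thus wider than counting error and than the spread between replicates. The ratio of miR-23a-3p to miR-23b-3p was 2.10-fold higher in Cis-sEV, a difference of 1.07 in mean log2 ratio (SD 0.04 in Cis-sEV and 0.20 in Ctrl-sEV, n = 3 each, p = 0.1 by a two-sided exact permutation test, which cannot go lower with 3 libraries against 3).

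The miR-27 guides shifted the other way. miR-27a-3p made up 25.5, 34.3 and 32.5% of the miR-27 guide reads in Cis-sEV and 41.0, 39.8 and 45.9% in Ctrl-sEV. All Cis-sEV libraries were below all Ctrl-sEV libraries, and the 95% Wilson intervals ran from 24.9 to 35.0% and from 37.6 to 48.1%. The ratio of miR-27a-3p to miR-27b-3p was 1.66-fold lower in Cis-sEV, a difference of -0.73 in mean log2 ratio (SD 0.32 and 0.19, n = 3 each, the same exact permutation test, p = 0.1). In Cis-sEV the balance therefore lay further to the cluster a paralog for miR-23 and further to the cluster b paralog for miR-27.

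Both ratios kept their direction with each library left out, between 0.97 and 1.18 for miR-23 and between -0.85 and -0.55 for miR-27. The ratio of the passenger miR-27b-5p to its guide miR-27b-3p was the remaining one with reads in every library. miR-27b-5p was 0.569, 1.16 and 1.18% of the reads of both arms in Cis-sEV and 8.69, 4.09 and 0.0882% in Ctrl-sEV. The groups overlapped, with a difference of -0.92 in mean log2 ratio (exact permutation test, p = 0.8). Adjusted over these 3 ratios by Benjamini-Hochberg, the exact permutation p-values were 0.15, 0.15 and 0.8, which this design cannot bring below the usual threshold.

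**Figure D4:**
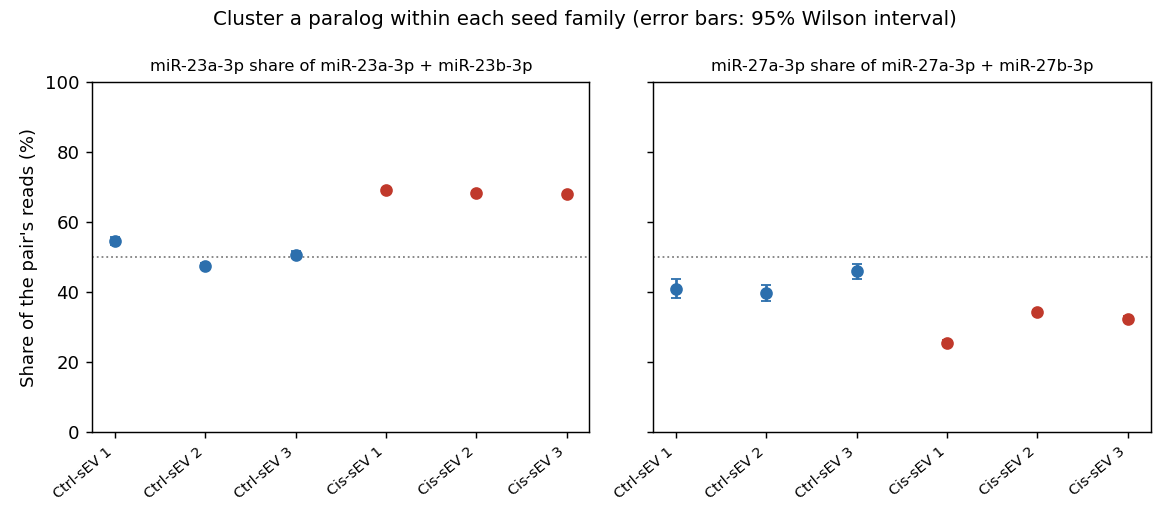
Share of the cluster a paralog (vertical axis, percent) among the guide reads of miR-23, left, and miR-27, right, in each library, with 95% Wilson intervals and a dotted line at equal shares. The Cis-sEV libraries lie at 68.1 to 69.3% above Ctrl-sEV at 47.6 to 54.6% on the left, and at 25.5 to 34.3% below Ctrl-sEV at 39.8 to 45.9% on the right.

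Summed by cluster, and leaving out the shared miR-24-3p, the 4 cluster a arms had 18414, 20665 and 19083 CPM in Cis-sEV and 13132, 10902 and 12809 CPM in Ctrl-sEV, a ratio of means of 1.58. The 3 cluster b arms had 13201, 13712 and 12785 CPM in Cis-sEV and 11840, 12498 and 12675 CPM in Ctrl-sEV, a ratio of 1.07. The cluster b sum turned slightly lower in Cis-sEV when replicate 1 or 2 of Cis-sEV or replicate 1 of Ctrl-sEV was left out, with log2 ratios of -0.046, -0.021 and -0.0015, so it had no stable direction. With TMM its near-equal sum held a higher miR-27b-3p and a lower miR-23b-3p, whereas with total miRNA reads the log2 ratio of the sum was 0.44. Chosen after the values were seen, and without a test, the ratio of miR-23b-3p to miR-27b-3p, guides of 1 cluster, was 1.20, 1.48 and 1.56 in Cis-sEV and 5.43, 7.07 and 4.42 in Ctrl-sEV, 3.94-fold lower in Cis-sEV. In cluster a, the ratio of miR-23a-3p to miR-27a-3p was 7.93, 6.14 and 6.92 in Cis-sEV and 9.40, 9.70 and 5.36 in Ctrl-sEV, and the groups overlapped.

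Other arms of the same loci were sparse, and of 6 related miRNAs looked for, neither of the 2 with enough reads for edgeR was called. The passenger miR-23b-5p had 40, 77 and 41 reads in Cis-sEV and 37, 133 and 51 reads in Ctrl-sEV. Scaled by TMM this was 19.4 to 40.7 CPM against 90.0 to 186 CPM, without overlap, as for 12.5% of all miRNAs tested in that direction, and the difference was -2.25 on the log2 scale with a standard error of 1.08 (adjusted p = 0.175 from edgeR, and 0.0149 from DESeq2, where it was called). It was also called by edgeR without Ctrl-sEV replicate 1 (adjusted p = 0.0499). Its own guide miR-23b-3p lay on the same side. miR-23a-5p had 0, 0 and 2 reads in Cis-sEV and 0 in Ctrl-sEV. The antisense hairpins of the miR-24 genes gave miR-3074-2-3p, with 11, 60 and 16 reads in Cis-sEV. Pooled over the group, these lay at least 7.79-fold above a floor of 3 reads summed over the Ctrl-sEV group. For miR-3074-5p, with 21, 14 and 0 reads in Cis-sEV, the groups overlapped. Only its pooled reads lay at least 3.13-fold above that floor. Both had 0 reads in all Ctrl-sEV libraries, and neither passed edgeR's filter on low counts. DESeq2, run without that filter, called miR-3074-2-3p (adjusted p = 0.0368) and not miR-3074-5p (adjusted p = 0.378). miR-3074-1-3p is not analysed here. miR-128-3p, a neuronal miRNA whose seed overlaps that of miR-27 with a shift of 1 base, had 839, 863 and 730 reads in Cis-sEV and 1, 265 and 9 reads in Ctrl-sEV. Ctrl-sEV replicate 2 was within the Cis-sEV range on the TMM scale but below it in CPM of total miRNA reads, and the log2 fold change of 1.64 (standard error 1.45) did not pass (adjusted p = 0.510 from edgeR). Without that library it was 5.25 (adjusted p = 0.0305 from edgeR), in a fit that called 27.4% of all miRNAs tested. Only 1 and 9 control reads then remained. The lower p follows from leaving out the only control within the Cis-sEV range, so it is no support for a difference.

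Among 318 other miRBase-named miRNAs with enough reads, the 5 whose pattern over the 6 libraries was nearest to the summed guides were miR-99a-5p, miR-143-3p, miR-22-3p, miR-130b-5p and miR-100-5p. Their root mean square difference from the summed guides, after centering log2 CPM on its mean, was 0.14 to 0.18, beside a median of 1.91 over all candidates. None of the 5 was called by edgeR. The nearest, miR-99a-5p, had 30426, 31852 and 27878 CPM in Cis-sEV and 26136, 20998 and 18817 CPM in Ctrl-sEV (log2 fold change 0.45, standard error 0.16, adjusted p = 0.0710). The smooth muscle miRNA miR-143-3p had 3890, 4207 and 4086 CPM in Cis-sEV and 2602, 1939 and 2611 CPM in Ctrl-sEV, with a log2 fold change of 0.77 (standard error 0.17), under the fold limit (adjusted p = 0.0141 from edgeR).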

How the data were processed

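The authors selected RNA of 18 to 30 nt on a gel, sequenced it on the DNBSEQ platform, aligned reads to GRCm38.p6 with Bowtie2 and annotated them with AASRA and CMSearch. They deposited raw read counts per mature miRNA, with no normalization, and also the mean signal, that is the mean read count, of each group, which was not used. Software versions are not given in the sources used here. Reads of other RNA classes were not analysed here, so each level is relative to miRNA reads. PCR copies were not told apart.

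Libraries were grouped by their labels. Counts were tested with edgeR 4.0.16 (R 4.3.3), filterByExpr (minimum 10 reads, 15 in all), TMM and the quasi-likelihood test, with Benjamini-Hochberg adjustment over all 353 miRNAs tested. The standard error is the log2 fold change divided by the square root of the F statistic. Alternatives were DESeq2 1.42.0, limma-voom (limma 3.58.1), other scalings, no filter, paralogs summed, replicate numbers as a block and each library left out. Ratios used log2(reads + 0.5) and exact permutation tests (scipy 1.17.1), and patterns log2(CPM + 1). On simulated counts with 200 miRNAs changed 8-fold, edgeR recovered 200 with 2 false calls among 432 tested. The simulated spread was equal in both groups and below the 0.37 and 1.55 of the data, and only well-read miRNAs were changed. It therefore does not measure how often calls are right or missed at the spread and fold changes seen here. Libraries of 1 group differed by more than sampling noise (chi-square per degree of freedom 66.3 to 115). Depth was 528952 to 1794175 miRNA reads. The design text calls the replicates biological without saying how they were separated, so p-values measure the spread between these samples. Named were the members, 6 related miRNAs of the same loci or seed, and the 5 nearest in pattern. Members and lists were chosen with earlier results of these data known.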

Additional observations from a re-analysis of the deposited data

How the results depend on the processing

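The number of arms called, 1 with edgeR and TMM, was 3 with total miRNA reads (miR-24-3p, miR-27a-3p and miR-27b-3p), 3 with no limit on the fold change, and 1 to 3 with each library left out. The 3 called without Ctrl-sEV replicate 3 include miR-24-2-5p, which has 0 reads in the remaining controls. miR-27b-3p was called under every fit that kept it as its own miRNA. With paralogs summed, the miR-27 guides were called (log2 fold change 1.26, adjusted p = 0.00575 from edgeR). The summed miR-23 guides did not pass the adjusted p (0.22, adjusted p = 0.188 from edgeR). That fit called 82 miRNAs higher and 22 lower of 351. Over all miRNAs tested, 106 were called by edgeR, 43 by limma-voom, 24 with the replicate block, and 53 to 169 with each library left out. Deviations of same-numbered libraries from their group means were little correlated (-0.049, -0.18 and -0.015). Whether same-numbered libraries were prepared together is not given in the sources used here and was not tested. The replicate block changed the call of no arm. The direction of miR-27a-5p turned to 0.44 with limma-voom and 1.71 with the replicate block, and ran from -1.03 to 7.40 with each library left out. The highest was a fitted value against 0 control reads, for which pooled reads give a bound of at least 5.81-fold. Cis-sEV replicate 1 also had 0 reads. The direction of miR-27b-5p turned to 0.55 with limma-voom and 0.39 with the replicate block, and ran from -1.02 to 0.59. The log2 ratio of miR-27b-5p to miR-27b-3p ran from -2.78 to 0.31. Of the sums, the log2 ratio of the miR-23 family, 0.21, was 0.14 with DESeq2 size factors, 0.56 with total miRNA reads and 0.079 to 0.33 with libraries left out. That of the cluster a arms, 0.66, was 1.01 with total miRNA reads and 0.52 to 0.80 with libraries left out. That of the cluster b arms, 0.10, was 0.027 and 0.44 under these scalings and -0.046 to 0.23 with libraries left out. The cause of these changes was not tested. All control reads of miR-24-2-5p and of miR-27a-5p came from Ctrl-sEV replicate 3, whose depth of 528952 reads was close to the 539785 of replicate 1. Depth limits counts of a few reads, most in the shallower Ctrl-sEV libraries.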

Other observations

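A predicted miRNA of 18 bases in the table shares its first 15 bases, and so its seed, with miR-27a-3p and miR-27b-3p. It was picked out after the values were seen. It had 6, 28 and 39 reads in Cis-sEV and 0, 1 and 3 reads in Ctrl-sEV, too few for the edgeR test, against 4077 to 11890 reads for the miR-27 guides in Cis-sEV. As a description chosen after the values were seen, the miR-23 guides outnumbered the miR-27 guides by 2.92, 3.08 and 3.30 to 1 in Cis-sEV and by 7.06, 8.12 and 4.85 to 1 in Ctrl-sEV, 2.11-fold lower in Cis-sEV, with no overlap between the groups. The ratio of miR-24-3p to the miR-27 guides, 1.71 to 3.10 in Cis-sEV against 2.10 to 4.69 in Ctrl-sEV, overlapped.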
